A study of Mus musculus with 6 samples.

Results

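The heat shock proteins and their DNAJ cochaperones make up the main folding machinery of the cytosol and the mitochondria, and 60 of their genes were described here in whole mouse liver with and without the metallopeptidase gene Lmln. The members were the rows of the deposited table whose gene name begins with Hspa, Hspb, Hspd, Hspe, Hsph or Hsp9, or is a Dnaja, Dnajb or Dnajc name with a number. Pseudogene names ending in -ps and digits and 5 genes of the endoplasmic reticulum (ER) stress response (Hspa5, Hsp90b1, Dnajb9, Dnajb11 and Dnajc3) were left out, and a member needed at least 60 counts summed over the 6 libraries. The pattern matched 85 of 55367 gene names in the table. Among these, 12 were pseudogene names, 5 were the named ER genes, 8 had too few counts and 60 were members. The members held between 0.2932% and 0.3346% of the counts of a library.

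The study compared the livers of Lmln-/- mice (labelled Lmln-KO, n = 3) with those of wild-type mice (WT, n = 3), all of the C57BL/6J strain. All mice were 46 weeks old except Lmln-KO 3, which was 39 weeks old, and the labels name no treatment, sex or conditional allele. The replicates are numbered in the labels without a statement that each came from its own animal, so p-values measure the spread between these libraries. The values are counts of reads per gene, read here as CPM (counts scaled to a common library total) after TMM normalization, which scales each library by a trimmed mean of its gene ratios.

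HSP70 proteins bind exposed hydrophobic stretches of client proteins in a cycle of ATP hydrolysis. J-domain proteins of the DNAJ families deliver clients and trigger the hydrolysis, and nucleotide exchange factors such as the HSP110 proteins reset the cycle. HSP90 matures signalling proteins, including steroid receptors, while HSP60 and HSP10 enclose imported proteins in a chamber inside mitochondria. Small heat shock proteins hold unfolded clients without ATP. Many of these genes are induced by heat shock factor 1 (HSF1), which binds inverted repeats of the letters GAA and TTC upstream of its targets, and in liver as elsewhere they respond to heat and to other stress that damages proteins.

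The heat shock element letters were searched in the 250 bases upstream of RefSeq transcription starts (GRCm38.p6), on both strands. A window with 3 alternating units, GAANNTTCNNGAA or TTCNNGAANNTTC, was found for 3 of the 47 members with a RefSeq window (6.38%) and for 0.51% of 27025 genes. The shorter pattern with 2 units, GAANNTTC or TTCNNGAA, which every match of the longer pattern also contains, was found for 12 of the 47 (25.53%) and for 14.55% of all genes. The members with 3 units were Hspd1, Hspe1 and Dnajb6. Hspd1 (HSP60) and Hspe1 (HSP10) face away from each other on chromosome 1, and their windows share 1 element of 18 bases. It lies 144 to 127 bases before the Hspd1 start and, on the opposite strand, 89 to 72 bases before the Hspe1 start. The window of another, outer Hspd1 start holds no match, and the stretch printed for Hspd1 lies within an annotated Hspd1 exon of GENCODE M21, as do that of Dnajb6 and most of that of Hsph1. Among the heat-inducible genes listed further on, Dnaja1, Dnaja4 and Dnajb4 had 2-unit matches that are not printed. All searched windows of Dnajb1, Hspb8 and Hspa4l, from the same list, held no match of either pattern. The stretches below are shown because they hold the 3-unit matches, or belong to classical heat-inducible genes with a match, and the levels of these genes are given further on. Capitals mark the matched letters and, in Hspb1, both of 2 separate matches.
Hspd1, chr1:55088053-55088082, minus strand: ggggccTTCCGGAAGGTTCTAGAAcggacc
Dnajb6, chr5:29735844-29735872, plus strand: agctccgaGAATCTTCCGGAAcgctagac
Hsph1, chr5:149636351-149636380, minus strand: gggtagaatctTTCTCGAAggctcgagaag
Hspb1, chr5:135887762-135887869, plus strand: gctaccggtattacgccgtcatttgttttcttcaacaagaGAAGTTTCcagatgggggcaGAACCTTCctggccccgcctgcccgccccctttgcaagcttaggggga
Hspa1b, chr17:34959295-34959382, minus strand: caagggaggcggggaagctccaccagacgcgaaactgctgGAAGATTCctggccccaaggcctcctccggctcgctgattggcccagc
The windows of Hspa1b and of its neighbouring copy Hspa1a differed at 3 of 250 bases. A match describes letters in the window and not binding. For 13 members, among them Hsp90aa1, Hsp90ab1, Hspa8 and Hspa9, no window was at hand and none was searched.

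Library totals were between 17388360 and 22494696 counts. Lmln had 4, 12 and 2 counts in the Lmln-KO libraries and 79, 80 and 39 in WT. Xist transcripts marked Lmln-KO 3, WT 2 and WT 3, between 1880 and 1950 CPM, and Y-linked transcripts marked Lmln-KO 1, Lmln-KO 2 and WT 1, so these sets were unevenly spread over the genotypes, and the 39-week mouse was in the Xist set. These sets are called the Xist libraries and the Y-linked libraries below, and they are described with no test. All 10 hepatocyte markers were detected in every library, and their summed level was between 82130 and 92680 CPM in Lmln-KO and between 95100 and 116500 CPM in the WT libraries. Most of this sum was Alb, at 45700 to 60800 CPM in Lmln-KO and 62500 to 74300 CPM in WT. Alb was the only 1 of the 10 whose genotypes did not overlap. By log2 fold change 8 of the 10 were lower and 2 higher in Lmln-KO. The summed level of 6 stellate cell markers was between 475.5 and 494.1 CPM in the Xist libraries and between 327.6 and 413.5 CPM in the Y-linked ones. The sum of 5 erythrocyte markers was between 80.91 and 131.7 CPM in the Xist libraries and between 173.9 and 275 CPM in the Y-linked ones. Of the 5, only Alas2, on chromosome X, separated these sets, at 10.9 to 14.7 against 97.1 to 125 CPM. The globin genes overlapped. The sum of 7 B and plasma cell markers lay between 20.64 and 38.66 CPM in 4 libraries and reached 401.3 CPM in WT, with WT 2 and WT 3 high. Of 10 muscle markers, Myh4, Ckm, Myl1 and Tnnt3 were at 0 in at least 1 library. In bulk RNA fewer cells of a type and less RNA per cell cannot be told apart, and the part of these cell markers in the values below was not tested.

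No member passed the test for genotype. With edgeR's quasi-likelihood test and Benjamini-Hochberg adjustment over 18703 tested genes, 0 of 60 members had an adjusted p of 0.05 or less, beside 0.0% of all tested genes, and the smallest adjusted p of a member was 0.933. DESeq2 and limma-voom also called 0 members, where DESeq2 called 0.0785% and limma-voom 0.0% of their tested genes. At an unadjusted p under 0.05 there were 3 members by edgeR, 2 by DESeq2 and 2 by limma-voom. Beside these stood 4.66% of all tested genes by edgeR, and 694 by DESeq2 and 849 by limma-voom of the same 18703 genes. The folds were small: 54 of 60 members had a log2 fold change between -0.3 and 0.3, and the median standard error of a member was 0.142. The log2 fold change was above 0, that is higher in Lmln-KO, for 39 members and below 0 for 21, beside 49.4% of all tested genes above 0 and 50.6% below. The median over members was 0.08, beside -0.00 over all tested genes. In a fit with a further term for the sex-marker set, called the sex-adjusted fit below, 44 members were above 0, beside 49.6% of genes, the median was 0.06, and again 0 members were called, beside 0.00535% of genes, while 3 had an unadjusted p under 0.05, beside 4.34%. DESeq2 with the same term called 0 members and 0.154% of genes. Of the members 59 are plotted with both fits by class.

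**Figure D1:**
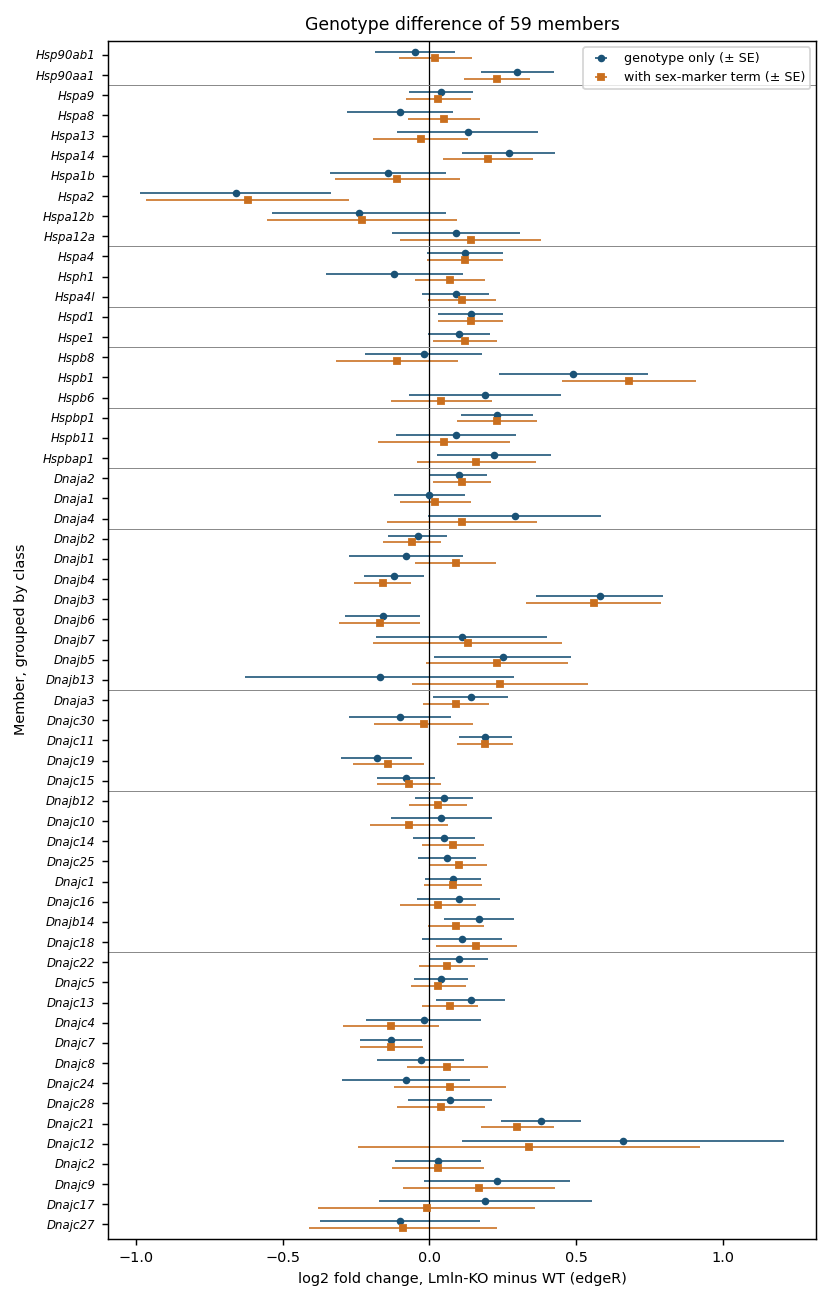
Log2 fold change (horizontal axis, Lmln-KO minus WT) of 59 of the 60 members (rows, grouped by class), with 1 standard error on either side, from edgeR with genotype only (circles) and with a sex-marker term (squares). Dnajc12 and Hspa2 lie farthest from 0, at 0.66 and -0.66, and no member had an adjusted p under 0.933.

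Between genotypes the levels of 6 members did not overlap, and all 6 were higher in Lmln-KO: Hsp90aa1, Hspb1, Dnajb3, Dnajc21, Dnajc11 and Hspbp1. Among all tested genes 10.3% did not overlap, 4.61% higher and 5.73% lower in Lmln-KO, so 6 of 60 is near the background share. The count rests on which libraries were compared. At fixed scaling, 14 members did not overlap without Lmln-KO 1 (17.3% of genes), 13 without Lmln-KO 2 (17.2%), 14 without Lmln-KO 3 (25.7%), 17 without WT 1 (27.3%), 12 without WT 2 (20.3%) and 7 without WT 3 (16.5%). Within the sex-marker sets, 24 members had a higher mean log2 level in Lmln-KO in both sets, beside 27.3% of genes, and 9 had a lower one in both, beside 27.3%. In each set 1 genotype had a single library. WT 1 was the only WT library of the Y-linked set, and Lmln-KO 3, the 39-week mouse, the only Lmln-KO library of the Xist set. This holds for all values within the sets given below.

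Across the 6 libraries the members varied little. The ratio of the highest to the lowest library was under 1.5 for 36 members and over 2 for 7. Its median was 1.36 over members and 1.64 over all tested genes, which were not matched to the members for level. Levels between genes were compared per kilobase of exon. On that scale Hsp90ab1, the constitutive cytosolic HSP90, was the highest at a mean of 230 CPM per kb. It was followed by Hspa9 (mitochondrial HSP70, 81.1), Hspb8 (a small heat shock protein that works with BAG3, 55.0), Dnajc22 (53.1), Hspd1 (50.0) and Hspa8 (constitutive HSP70, 49.0). The stress-inducible HSP90, Hsp90aa1, was at 11.4 CPM per kb and the stress-inducible HSP70, Hspa1b, at 2.34. The lowest member was Dnajc27 at 0.258. Of all counts of members 40% belonged to 3 genes, and 13 members had a mean level under 5 CPM. The neighbours Hspb8, Dnajc22, Hspd1 and Hspa8 differed in mean by less than the spread of Hspb8, whose levels ran from 87.9 to 140 CPM before division by length. Of the 36-base words (1 read length) in their transcripts, 49.48% for Hspd1 and 43.2% for Hspa8 also occur in other genes, beside 0.0% for Hspb8 and Dnajc22. With reads of near copies elsewhere added, Hspd1 stood at 262 to 313 CPM and Hspa8 at 344 to 503 CPM. Their place in the order thus depends on where shared reads were counted, which was not tested. The members with the fewest counts were Dnajc17 with 108 and Dnajc27 with 155 summed over libraries. Below the minimum of 60 were Hspa1l with 50, Hspa1a with 41, Hspb9 with 35, Dnajb8 with 15, Dnajc6 with 12, Hspb2 with 7, Hspb7 with 2 and Hspb3 with 0.

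**Figure D2:**
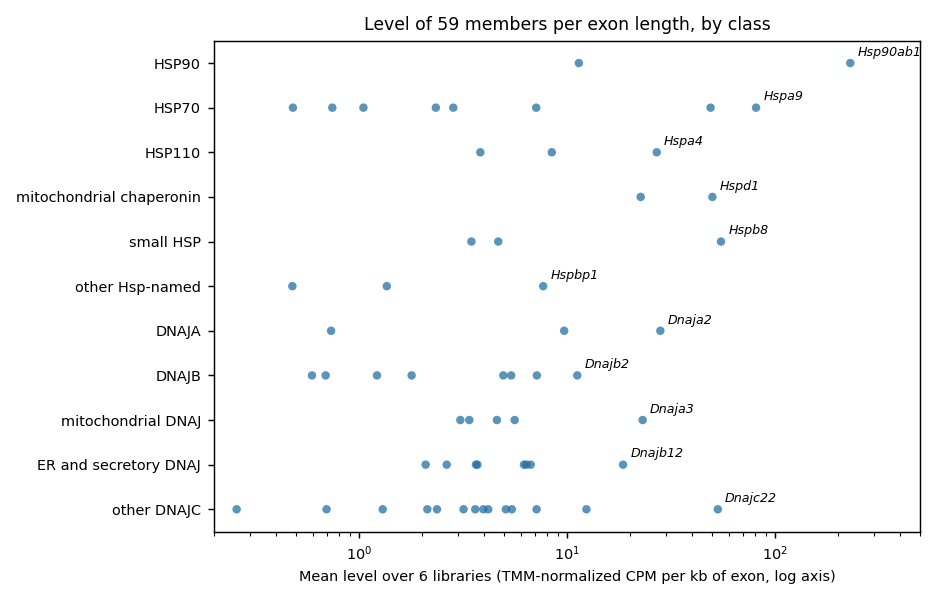
Mean level over 6 libraries in TMM-normalized CPM per kb of exon (horizontal log axis) of 59 of the 60 members, 1 point each, by class (rows), with the highest plotted member of each class named. Hsp90ab1 stands at 230 and Hspa9 at 81.1, and most classes hold both abundant and scarce members.

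The 2 cytosolic HSP90 genes differed in level and in which libraries were high. Hsp90aa1 (chr12:110690605-110702728) stood at 47.9, 56.0 and 44.1 CPM in Lmln-KO 1 to 3 and at 43.1, 41.6 and 35.6 CPM in WT 1 to 3. The highest was Lmln-KO 2 and the lowest WT 3, and the lowest Lmln-KO library lay just above the highest WT library. Mean levels were 49.3 ± 6.07 CPM for Lmln-KO and 40.1 ± 3.98 CPM for WT (SD, n = 3 each), and the log2 fold change was 0.30 (SE 0.126, edgeR adjusted p = 0.933). Hsp90ab1 (chr17:45567775-45573271) stood at 632, 675 and 727 CPM in Lmln-KO and at 627, 725 and 755 CPM in WT, and its log2 fold change was -0.05 (SE 0.137, adjusted p = 0.97). Its groups overlapped, while the Xist libraries (725 to 755 CPM) all lay above the Y-linked ones (627 to 675 CPM). In the sex-adjusted fit the log2 fold change of Hsp90ab1 was 0.02 and that of Hsp90aa1 0.23. Of the 36-base words in Hsp90aa1 transcripts, 50.21% also occur in other genes. Adding the reads of its 3 near copies, the loci Gm12346, Gm5844 and Gm5511, gave 107, 116 and 91.0 CPM in Lmln-KO and 91.5, 93.5 and 76.7 CPM in WT, which overlapped.

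Of the 8 HSP70 members, 4 were higher and 4 lower in Lmln-KO, with a median log2 fold change of -0.03. Hspa8 (chr9:40800984-40810087), the constitutive form, stood at 169, 206 and 236 CPM in Lmln-KO and at 171, 235 and 248 CPM in WT. Both groups held low and high libraries, and the Xist libraries (235 to 248 CPM) again lay above the Y-linked ones (169 to 206 CPM). Its log2 fold change was -0.10 (SE 0.181, adjusted p = 0.961), and it was 0.05 in the sex-adjusted fit. Hspa9 stood at 337, 369 and 356 CPM in Lmln-KO and at 356, 340 and 339 CPM in WT, a ratio of highest to lowest of 1.09, and its log2 fold change was 0.04 (SE 0.11). Hspa1b (chr17:34956436-34959238), a gene strongly induced by heat, was among the scarce ones. It stood at 4.95, 7.65 and 6.10 CPM in Lmln-KO and at 6.18, 7.49 and 6.91 CPM in WT. The groups overlapped, the log2 fold change was -0.14 (SE 0.198, adjusted p = 0.941), and its copy Hspa1a had 41 counts in all. Hspa1a stood at 0.288, 0.283 and 0.0426 CPM in Lmln-KO and at 0.713, 0.321 and 0.576 CPM in WT, lower in Lmln-KO without overlap, and it did not pass the filter on low counts. Its counts were 6, 6 and 1 in Lmln-KO and 12, 6 and 10 in WT, so the lack of overlap rests on the scaling of tied counts. Of the 36-base words of Hspa1b 66.47% occur in other genes, Hspa1a above all, so the counts of the pair depend on how shared reads were placed.

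Hspa2, a form best known from the testis, had the lowest log2 fold change of any member at -0.66 (SE 0.326, adjusted p = 0.933). It stood at 2.5, 1.70 and 2.26 CPM in Lmln-KO and at 3.21, 2.19 and 4.84 CPM in WT, and WT 3 was the highest library. Hspa14, a ribosome-associated HSP70, stood at 14.4, 12.4 and 11 CPM in Lmln-KO and at 11.1, 11.3 and 8.87 CPM in WT (log2 fold change 0.27, SE 0.158), with overlapping groups. The members outside the rule for full values, Hspa13, Hspa12a and Hspa12b, had log2 fold changes of 0.13, 0.09 and -0.24.

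The HSP110 members, which exchange the nucleotide of HSP70, differed among themselves. Hsph1 (chr5:149614287-149636376), the heat-inducible one whose window carries 2 units, stood at 45.2, 57.0 and 74.2 CPM in Lmln-KO and at 47.2, 76.5 and 68.5 CPM in WT. Its levels were split by sex marker, 68.5 to 76.5 CPM in the Xist libraries against 45.2 to 57.0 CPM in the Y-linked ones, and not by genotype (log2 fold change -0.12, SE 0.233, adjusted p = 0.961, and 0.07 in the sex-adjusted fit). Hspa4, the most abundant of the 3 per kilobase, stood at 148, 155 and 163 CPM in Lmln-KO and at 152, 157 and 120 CPM in WT, with WT 3 alone at the low end. Hspa4l stood at 44.9, 44.8 and 46.4 CPM in Lmln-KO and at 41.7, 48.6 and 37.7 CPM in WT. Their log2 fold changes were 0.12 (SE 0.129) for Hspa4 and 0.09 (SE 0.114) for Hspa4l. The exchange factor Hspbp1, a member by its name, stood at 16.6, 16.2 and 14.2 CPM in Lmln-KO and at 12.2, 13.9 and 14.1 CPM in WT. Its groups did not overlap but nearly met, at a log2 fold change of 0.23 (SE 0.124, adjusted p = 0.933).

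The mitochondrial chaperonin pair with the shared upstream element had small positive log2 fold changes in both genes. Hspd1 (chr1:55077835-55088243) stood at 126, 153 and 138 CPM in Lmln-KO and at 127, 121 and 128 CPM in WT, a log2 fold change of 0.14 (SE 0.111, adjusted p = 0.933). Hspe1 (chr1:55088132-55091307) stood at 31.8, 35.8 and 36 CPM in Lmln-KO and at 31.8, 29.7 and 35.1 CPM in WT, a log2 fold change of 0.10 (SE 0.106, adjusted p = 0.933). In both, Lmln-KO 1 lay within the WT range. Exons of the pair overlap by 112 bases on opposite strands, and the counting had no option for strand or for overlapping genes.

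Among the mitochondrial J proteins, 2 of 5 were higher and 3 lower in Lmln-KO. Dnajc11 (chr4:151933691-151982137), an outer membrane protein tied to cristae organization, stood at 52.0, 54.4 and 50.5 CPM in Lmln-KO and at 44.1, 45.7 and 48.0 CPM in WT. The groups did not overlap, the means were 52.3 ± 1.96 and 45.9 ± 1.96 CPM (SD, n = 3 each), and the log2 fold change was 0.19 (SE 0.0905, adjusted p = 0.933). Dnajc19, a part of the protein import motor, stood at 11.7, 12.7 and 14.0 CPM in Lmln-KO and at 13.9, 14.5 and 15.1 CPM in WT. Its genotypes overlapped at Lmln-KO 3, and its log2 fold change was -0.18 (SE 0.121). Dnaja3, a partner of mitochondrial HSP70, stood at 95.5, 97.5 and 91.7 CPM in Lmln-KO and at 98.0, 88.4 and 72.2 CPM in WT, with WT 3 the lowest. Dnajc30 stood at 7.59, 9.31 and 10 CPM in Lmln-KO and at 8.67, 8.83 and 11.4 CPM in WT, and 26.25% of its exon length overlaps Bud23 on the other strand. Dnajc15, a paralog of Dnajc19, had a log2 fold change of -0.08.

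The 3 small heat shock proteins did not share a pattern. Hspb1 (chr5:135887919-135889563), a heat-inducible holder of unfolded proteins and actin regulator, stood at 5.48, 5.43 and 5.97 CPM in Lmln-KO and at 2.55, 4.87 and 4.61 CPM in WT. The genotypes did not overlap, and WT 1 lay well below the other libraries. The log2 fold change came to 0.49 (SE 0.254, adjusted p = 0.933), and in the sex-adjusted fit it was 0.68 at an unadjusted p of 0.016 (adjusted p = 0.987). The difference was 1.07 on the log2 scale within the Y-linked libraries, where WT 1 is the only WT library, and 0.33 within the Xist libraries. Of its 36-base words 53.98% occur elsewhere, and with the reads of 2 near copies added the groups overlapped and the log2 fold change was 0.34. Hspb8 stood at 140, 91.2 and 87.9 CPM in Lmln-KO and at 110, 92.3 and 122 CPM in WT, with Lmln-KO 1 the highest and a log2 fold change of -0.02 (SE 0.199). The remaining small heat shock protein, Hspb6, was lower in the Xist libraries and had a log2 fold change of 0.19. Hspb11 and Hspbap1, which carry the name without being small heat shock proteins, had log2 fold changes of 0.09 and 0.22.

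Among the DNAJA and DNAJB members, which feed the cytosolic HSP70s, Dnajb1 (chr8:83608193-83612653) is the best known target of HSF1. Its searched windows held neither pattern of the heat shock element letters. Dnajb1 stood at 18.4, 23.2 and 25.2 CPM in Lmln-KO and at 17.3, 26.3 and 27.2 CPM in WT. Its groups overlapped (log2 fold change -0.08, SE 0.195, adjusted p = 0.967, and 0.09 in the sex-adjusted fit), and as for Hspa8 and Hsph1 the Xist libraries (25.2 to 27.2 CPM) lay above the Y-linked ones (17.3 to 23.2 CPM). Dnaja1, another heat-inducible J protein, stood at 74.7, 89.3 and 87.3 CPM in Lmln-KO and at 84.0, 92.3 and 74.3 CPM in WT, with a log2 fold change of 0.00 (SE 0.122). Dnaja2 stood at 80.8, 90.9 and 87.9 CPM in Lmln-KO and at 78.5, 85.1 and 78.9 CPM in WT (0.10, SE 0.0978). The scarce Dnaja4 stood at 2.79, 3.68 and 2.22 CPM in Lmln-KO and at 3.03, 2.30 and 1.79 CPM in WT (0.29, SE 0.294), and 44.05% of its exon length overlaps Wdr61 on the other strand. None of the 3 separated the genotypes.

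Dnajb3 (chr1:88204732-88205782), a J protein best known from the testis, had the largest log2 fold change of the members whose genotypes did not overlap. It stood at 6.68, 5.72 and 6.27 CPM in Lmln-KO and at 4.39, 5.03 and 3.05 CPM in WT. The means were 6.22 ± 0.483 and 4.16 ± 1.01 CPM (SD, n = 3 each), and the log2 fold change was 0.58 (SE 0.217, unadjusted p = 0.0282, adjusted p = 0.933), with 0.48 within the Y-linked and 0.66 within the Xist libraries. The gene lies on the strand opposite to Ugt1a genes that span it, among them Ugt1a6b with 5039 counts, and reads of a spanning transcript could not be told apart from its own without strand. Dnajb4 stood at 45.0, 48.1 and 42.5 CPM in Lmln-KO and at 51.4, 51.5 and 44.9 CPM in WT (-0.12, SE 0.102). Dnajb6, which keeps aggregation-prone proteins soluble and whose window carries 3 units, stood at 9.42, 11 and 10.3 CPM in Lmln-KO and at 11.9, 10.8 and 11.6 CPM in WT (-0.16, SE 0.128). Dnajb2 stood at 47.2, 45.0 and 48.8 CPM in Lmln-KO and at 53.2, 45.9 and 46.0 CPM in WT (-0.04, SE 0.101). In these 3 the genotypes overlapped, as they did for Dnajb5, Dnajb7 and Dnajb13, whose log2 fold changes were 0.25, 0.11 and -0.17.

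The other DNAJC members serve particular machines. Dnajc21 (chr15:10446756-10470516), which acts in maturation of the large ribosomal subunit, had the smallest p of any member. It stood at 18.7, 16.9 and 15.9 CPM in Lmln-KO and at 15.1, 11.7 and 13.0 CPM in WT, so that the highest WT library lay just under the lowest Lmln-KO library. The means were 17.2 ± 1.41 and 13.2 ± 1.73 CPM (SD, n = 3 each), and the log2 fold change was 0.38 (SE 0.137, unadjusted p = 0.0251, adjusted p = 0.933). Over the 19 alternative settings its adjusted p, which was the smallest of any named gene, reached 0.53 without WT 1. Dnajc7, a cochaperone of both HSP70 and HSP90, stood at 39.2, 42.8 and 45.1 CPM in Lmln-KO and at 49.6, 42.2 and 47.0 CPM in WT (-0.13, SE 0.105). Dnajc13, an endosomal J protein, stood at 93.2, 95.6 and 79.6 CPM in Lmln-KO and at 87.8, 82.1 and 73.3 CPM in WT (0.14, SE 0.118). Dnajc22, the most abundant DNAJC member per kilobase, stood at 108, 99.8 and 96.3 CPM in Lmln-KO and at 99.3, 95.7 and 89.6 CPM in WT (0.10, SE 0.101). Dnajc5, the cysteine string protein of secretory vesicles, stood at 87.4, 89.1 and 85.5 CPM in Lmln-KO and at 84.9, 89.1 and 81.1 CPM in WT (0.04, SE 0.0926). The genotypes of these 4 overlapped, and so did those of the other DNAJC members: Dnajc2, Dnajc4, Dnajc8, Dnajc9, Dnajc12, Dnajc17, Dnajc24, Dnajc27 and Dnajc28. Over all 14 of this class the log2 fold changes ran from -0.13 to 0.66, with 9 above 0.

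**Figure D3:**
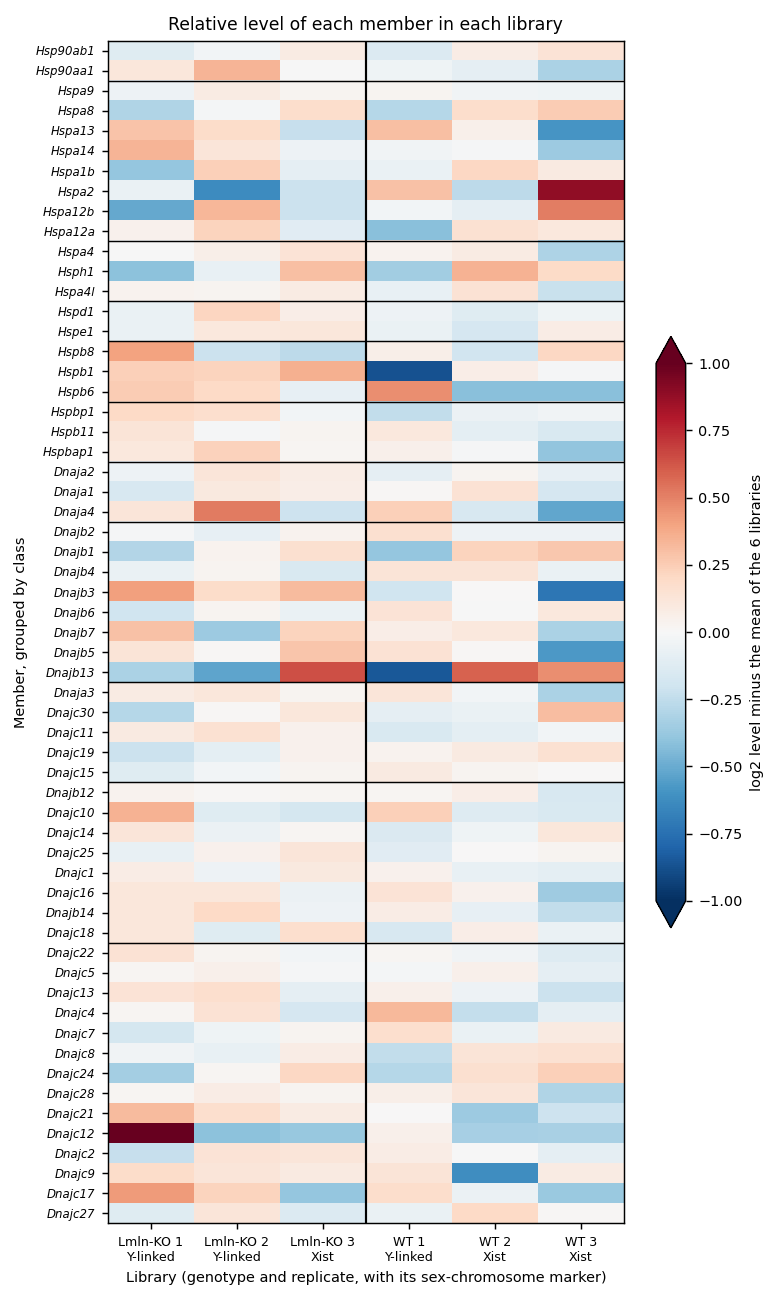
Log2 level of 59 of the 60 members (rows, grouped by class) minus its mean over the 6 libraries (columns, with genotype, replicate and sex-chromosome marker), with red above and blue below the mean. In 6 rows the 3 Lmln-KO columns do not overlap the 3 WT columns, and Dnajc12 is high in Lmln-KO 1 alone.

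Levels split by sex marker in 5 of the 15 tested heat-inducible members, beside 26.3% of all tested genes. Hsp90ab1, Hspa8, Hsph1 and Dnajb1 were higher in the Xist libraries and Dnaja4 was lower in them, as given above. Over all members 21 of 60 had levels that did not overlap between the Xist and the Y-linked libraries, beside 26.3% of tested genes. Of these, 8 were higher in the Xist libraries, beside 13.0% of genes, and 13 were lower, beside 13.3%. The 8 of 60 that were higher are thus near the background share. The 8 higher members were Hsp90ab1, Hspa8, Hsph1, Dnajb1, Dnajc8, Dnajc19, Dnajc24 and Dnajb13. The 13 lower members were Dnaja3, Dnaja4, Dnajb14, Dnajc4, Dnajc9, Dnajc10, Dnajc13, Dnajc16, Dnajc17, Dnajc22, Hspa13, Hspb6 and Hspbap1. The near copies of Hspa8 followed it: Gm15459, which holds 37.45% of the 36-base words of Hspa8, stood at 125, 126 and 164 CPM in Lmln-KO and at 114, 178 and 159 CPM in WT. Stellate cell and erythrocyte marker sums were split the same way or the opposite way, the erythrocyte sum through Alas2 alone, as given above. The part of these markers in this was not tested.

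**Figure D4:**
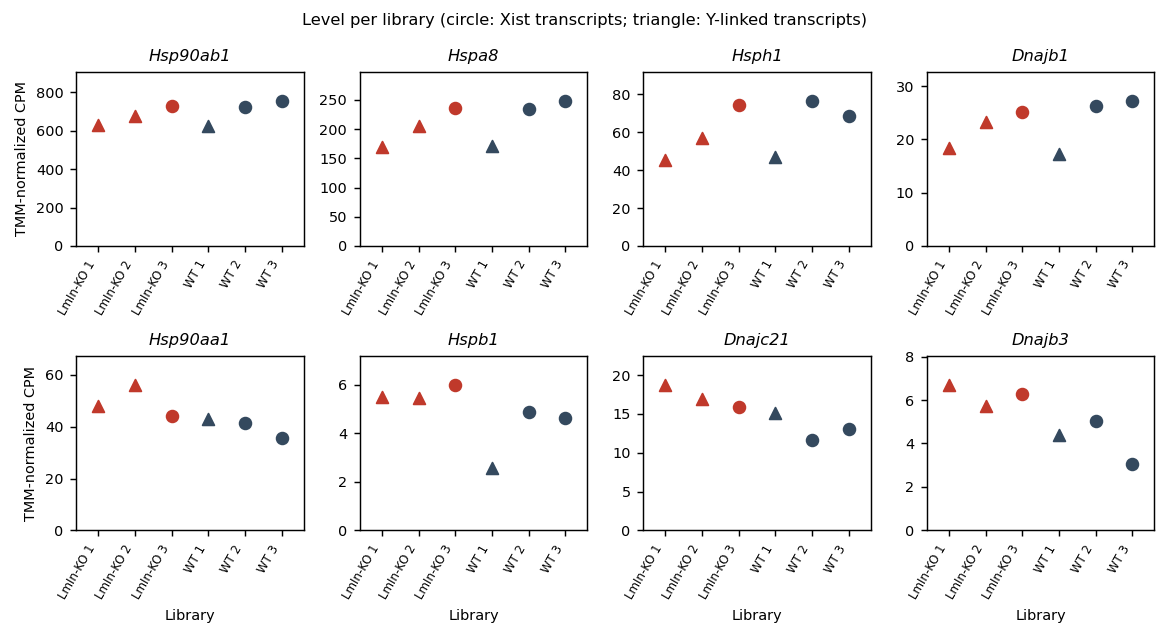
TMM-normalized CPM (vertical axes from 0) of 8 members in each library (horizontal axis, Lmln-KO red, WT dark blue), with circles for Xist and triangles for Y-linked libraries. In the top row circles lie above triangles, from 725 to 755 against 627 to 675 CPM for Hsp90ab1, and in the bottom row every Lmln-KO point lies above every WT point.

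A list of 16 heat-inducible genes, of which 15 are members and Hspa1a is not, was summed. With genotype, 8 of the 15 tested genes were higher and 7 lower, with a median log2 fold change of 0.00 and 0 called. Here and for the lists that follow, called means an edgeR adjusted p of 0.05 or less. At an unadjusted p under 0.05 this list had 1 gene, Hsp90aa1, by edgeR and 0 by DESeq2 and limma-voom, and the other chaperone lists had 0 by all 3. The summed level ran from 1726 to 1915 CPM over the Lmln-KO libraries and from 1719 to 1930 CPM over the WT ones. It was 1896 to 1930 CPM in the Xist libraries and 1719 to 1866 CPM in the Y-linked ones. Hsp90ab1, Hspa9 and Hspa8, which are abundant without stress, held 67.9% of the summed level, so it says little of strongly inducible genes such as Hspa1b. The heat shock factors stood close between genotypes, with 3 of 5 higher, a median of 0.13 and 0 called. Hsf1, the main regulator, stood at 19.0, 20.1 and 20.5 CPM in Lmln-KO and at 17.8, 22.8 and 20.8 CPM in WT (-0.04, SE 0.121, and 0.02 in the sex-adjusted fit), and its Xist libraries lay above its Y-linked ones. Hsf2 stood at 50.2, 38.6 and 55.8 CPM in Lmln-KO and at 42.5, 45.5 and 43.1 CPM in WT (0.14, SE 0.14). The cold-inducible RNA-binding proteins Cirbp and Rbm3, which cooling induces, differed by -0.03 (SE 0.185) and 0.04 (SE 0.186) on the log2 scale.

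Of 28 cochaperones of HSP90 and HSP70, 18 were higher and 10 lower in Lmln-KO, with a median log2 fold change of 0.04 and 0 called. Stip1, which bridges HSP70 and HSP90, stood at 46.2, 52.5 and 51.0 CPM in Lmln-KO and at 46.7, 45.8 and 43.2 CPM in WT (0.14, SE 0.0959). Cdc37l1, a relative of the kinase-specific cochaperone Cdc37, stood at 84.6, 95.9 and 85.1 CPM in Lmln-KO and at 77.6, 79.8 and 79.2 CPM in WT (0.17, SE 0.0971). The groups of Cdc37l1 did not overlap, while those of Stip1 did. Bag4, an HSP70 exchange factor, stood at 45.0, 48.8 and 45.0 CPM in Lmln-KO and at 44.0, 41.2 and 35.2 CPM in WT (0.20, SE 0.111), also without overlap. Both were among the genes named for their small p. Of the 28, 2 were higher and 0 lower in Lmln-KO without overlap, beside 4.61% and 5.73% of all tested genes. Fkbp4, an immunophilin of steroid receptor complexes, stood at 145, 135 and 157 CPM in Lmln-KO and at 129, 138 and 125 CPM in WT (0.16, SE 0.107). Its paralog Fkbp5, a glucocorticoid-responsive gene picked here after its values were seen, stood at 23.0, 25.1 and 98.2 CPM in Lmln-KO and at 14.2, 93.9 and 81.4 CPM in WT. Fkbp5 thus ran from 81.4 to 98.2 CPM in the Xist libraries and from 14.2 to 25.1 CPM in the Y-linked ones.

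The cytosolic chaperonin and prefoldin subunits, which fold actin and tubulin, were higher in 11 and lower in 3 of 14, with a median of 0.05 and 0 called. Cct2 stood at 83.8, 84.7 and 81.3 CPM in Lmln-KO and at 80.9, 80.5 and 68.9 CPM in WT (0.12, SE 0.102). Among 12 mitochondrial folding partners 6 were higher and 6 lower, with a median of 0.02 and 0 called. Grpel1, the exchange factor of Hspa9, stood at 78.5, 83.8 and 74.0 CPM in Lmln-KO and at 67.7, 73.0 and 73.5 CPM in WT (0.14, SE 0.0974); its groups did not overlap but nearly met. Its paralog Grpel2 stood at 40.8, 35.9 and 68.1 CPM in Lmln-KO and at 43.6, 77.8 and 75.3 CPM in WT (-0.44, SE 0.323). The levels of Grpel2 were thus split by sex marker and those of Grpel1 were not. Hscb, the J protein of iron-sulfur cluster assembly, stood at 1.44, 1.09 and 1.62 CPM in Lmln-KO and at 1.78, 1.93 and 2.30 CPM in WT (-0.53, SE 0.275, adjusted p = 0.933), lower in Lmln-KO without overlap. Of the 12 partners, 1 was higher and 1 lower without overlap, beside 4.61% and 5.73% of all tested genes.

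All 8 ER and secretory DNAJ members had a log2 fold change above 0, but between 0.04 and 0.17 only, and 0 were called. In the sex-adjusted fit 7 were above 0. Dnajb12, an ER membrane J protein, stood at 64.4, 63.2 and 63.7 CPM in Lmln-KO and at 63.7, 65.6 and 56.1 CPM in WT (0.05, SE 0.0979). Its relative Dnajb14 stood at 44.6, 47.4 and 39.9 CPM in Lmln-KO and at 43.6, 39.0 and 34.8 CPM in WT (0.17, SE 0.119). Dnajc10, an ER disulfide reductase that works with the ER HSP70 Hspa5, stood at 42.2, 30.4 and 29.3 CPM in Lmln-KO and at 39.0, 30.3 and 29.8 CPM in WT. Lmln-KO 1 and WT 1 were the high libraries, and the log2 fold change was 0.04 (SE 0.172) and -0.07 in the sex-adjusted fit. Dnajc1, Dnajc14, Dnajc16, Dnajc18 and Dnajc25 had log2 fold changes of 0.08, 0.05, 0.10, 0.11 and 0.06. The 13 ER chaperones outside the pattern were higher in 12 of 13, with a median of 0.32 (0.11 in the sex-adjusted fit) and 0 called. Of these, 12 were lower and 1, Dnajb9, was higher in the Xist libraries without overlap, beside 13.3% and 13.0% of all tested genes. Their sum was highest in Lmln-KO 1 at 6866 CPM and ran from 3150 to 3999 CPM in the Xist libraries and from 4525 to 6866 CPM in the Y-linked ones.

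Dnajc12 (chr10:63382443-63410576), a J protein that assists the aromatic amino acid hydroxylases, was the most variable member, with a highest to lowest ratio of 3.51. It was picked for description after its values were seen. It stood at 24.7, 7.04 and 7.21 CPM in Lmln-KO and at 9.68, 7.44 and 7.49 CPM in WT. Lmln-KO 1 alone was high, WT 1 came next, and the other 4 libraries lay close together. The log2 fold change of 0.66 (SE 0.549, adjusted p = 0.933) was 0.34 in the sex-adjusted fit. Within the sets it was 0.44 in the Y-linked and -0.05 in the Xist libraries. Lmln-KO 1 and WT 1, in that order, were also the highest libraries for Hspa5 (1010 and 852 CPM), Hsp90b1 (1250 and 857 CPM) and Hyou1 (697 and 477 CPM), the main folding proteins of the ER lumen.

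**Figure D5:**
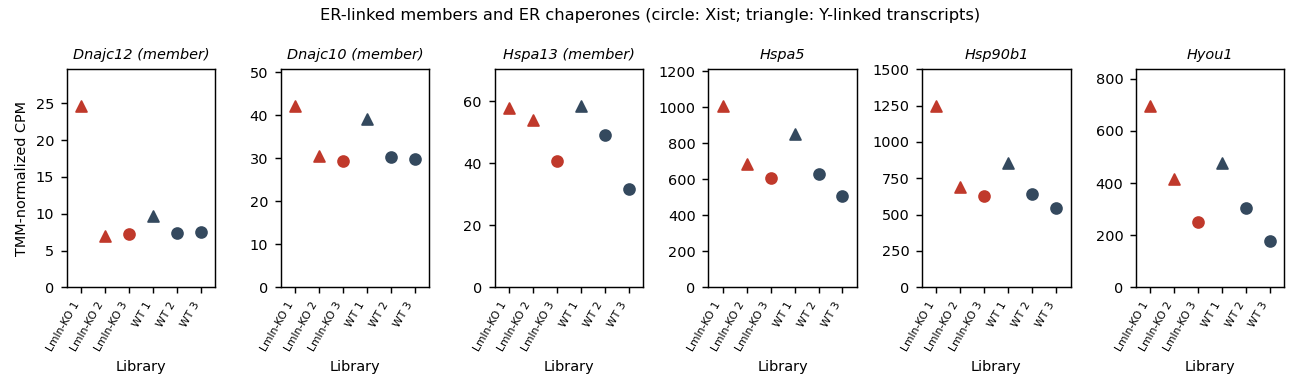
TMM-normalized CPM (vertical axes from 0) of 3 ER-linked or variable members (Dnajc12, Dnajc10, Hspa13) and 3 ER chaperones outside the pattern (Hspa5, Hsp90b1, Hyou1) in each library (horizontal axis, Lmln-KO red, WT dark blue), with circles for Xist and triangles for Y-linked libraries. In 5 of 6 panels Lmln-KO 1 is the highest library, with 24.7 CPM for Dnajc12 and 1010 CPM for Hspa5.

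Some members share read-length words with other genes, at near copies elsewhere or at overlapping genes of the same locus, and how reads of such words were placed was not tested. In the 59 members matched to GENCODE M21 transcripts, the median share of 36-base words (1 read length) found in another gene was 3.34%, with 25 members under 1%, 12 over 10% and 3 over 50% (Hspa1b, Hspb1 and Hsp90aa1). Among the members without shared words were Dnaja2, Dnajb2, Dnajb3, Dnajb12, Dnajc10, Dnajc22, Hspa4, Hsph1 and Hspb8. With near-copy reads added, 4 members in place of 6 separated the genotypes, Hsp90aa1 and Hspb1 being the 2 that no longer did, Hspa8 still separated the Xist from the Y-linked libraries, and Dnajc19 no longer did.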

How the data were processed

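RNA of whole liver was depleted of ribosomal RNA and sequenced in 36-base read pairs from a directional library, as the labels' protocols say. The authors deposited raw counts per gene name. Per the file headers the authors counted reads over exons of Ensembl release 102 (GRCm38) with featureCounts 2.0.1, with no option for pairs, strand, multi-mapping or overlapping genes. Subread 2.0.2 and edgeR 3.36.0 are also listed per the submitters' processing notes. The alignment tool was not given in the sources used here.

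Genotype was tested with edgeR 4.0.16 under R 4.3.3 (filterByExpr with a minimum count of 10, TMM, robust quasi-likelihood fit on genotype, Benjamini-Hochberg over 18703 genes, threshold 0.05). All 60 members passed the filter. Alternatives used DESeq2 1.42.0 and limma-voom 3.58.1, other scalings and filters, a sex-marker term, each library left out and near-copy reads added. The scripts were tested on simulated data with the library sizes and dispersions of these counts. There edgeR called 25% of genes changed 2-fold and 77% of those changed 4-fold, and 12 unchanged genes. DESeq2 called 41% and 86%, and 47 unchanged genes, and limma-voom 12% and 71%, and 7 unchanged genes. Within the sex-marker sets, log2 CPM took a prior count of 2. Every pair of libraries differed by more than sampling noise.

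Members, lists and classes were chosen with earlier results of these data known. The rule for named genes allowed full values for the top 2 members per class by level per kilobase, the 15 members with the smallest p, the heat-inducible list, and up to 4 genes with the smallest p of each other list. Any other gene with values in all libraries was picked after its values were seen, and the remaining members are given by fold change. Of the members, 1 counted among the 60 is not reported here by itself.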

Additional observations from a re-analysis of the deposited data

How the results depend on the processing

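Members called by genotype stayed at 0 in all 19 alternatives. Genes called in the whole table were 0 in the main analysis, 22 with DESeq2, 27 with DESeq2 and the sex-marker term, 3 without a filter on low counts, 1 with the sex-marker term and 1 with the replicate block, and 0 to 3 when 1 library was left out (3 without WT 1). Members whose genotypes did not overlap ranged from 7 to 18 of 60 when 1 library was left out and the rest were normalized again. At fixed scaling, 16.5% to 27.3% of all tested genes did not overlap when 1 library was left out. The median over members ranged from 0.03 (without WT 3) to 0.08 when 1 library was left out, and was at most 0.09 in the other alternatives. The same-numbered libraries did not pair (correlations of deviations 0.465, -0.311 and 0.405), so the block shows only a shared number, and not every library correlated best with its own number.

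Of 1082 values of 57 named genes, 1034 kept their direction, 0 were called, and 48 over 17 genes reversed, Pdia4 among them from a main value of 0.34. Dnaja1 was -0.02 under upper-quartile scaling. With the sex-marker term, and then with DESeq2 and that term, values were 0.09 and 0.10 for Dnajb1, -0.07 and -0.05 for Dnajc10, 0.02 and 0.04 for Hsf1, 0.02 and 0.03 for Hsp90ab1, 0.05 and 0.07 for Hspa8, 0.07 and 0.09 for Hsph1, and -0.04 and -0.02 for Rbm3. Leaving out each library in turn gave ranges from -0.17 to 0.09 for Cirbp, -0.07 to 0.09 for Dnaja1, -0.26 to 0.04 for Dnajb1, -0.02 to 0.09 for Dnajb12, -0.08 to 0.03 for Dnajb2, -0.14 to 0.18 for Dnajc10, -0.18 to 0.04 for Dnajc30, -0.13 to 0.04 for Hsf1, -0.02 to 0.25 for Hsf4, -0.04 to 0.44 for Hsf5, -0.12 to 0.01 for Hsp90ab1, -0.31 to 0.01 for Hspa1b, -0.24 to 0.03 for Hspa8, -0.27 to 0.10 for Hspb8, -0.32 to 0.04 for Hsph1, -0.04 to 0.51 for Pdia4 and -0.11 to 0.23 for Rbm3. The cause was not tested.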

Other observations

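Some loci that share long stretches with a member held counts of the same order as the member itself. Hspd1-ps3, which holds 44.13% of the 36-base words of Hspd1, had 17205 counts over the 6 libraries, beside 15720 for Hspd1. It stood at 136, 159 and 153 CPM in Lmln-KO 1 to 3 and 132, 152 and 135 CPM in WT 1 to 3. Gm15459 had 17137 counts beside 24998 for Hspa8, and Gm12346 had 4245 beside 5338 for Hsp90aa1. Hspa9-ps1, which holds 7.24% of the words of Hspa9, had 6943 counts beside 41423. It stood at 55.5, 59.4 and 57.5 CPM in Lmln-KO and 58.1, 60.7 and 61.4 CPM in WT. The 5 near copies of Hspa8 (Gm15459, Gm8355, Gm6210, Gm7232 and Gm8337) were each higher in every Xist library than in every Y-linked one, as Hspa8 was. Whether reads at these loci came from the member or from the copy was not tested.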
